A study of Mus musculus with 10 samples.

Results

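Motile cilia beat by means of an axoneme, a ring of doublet microtubules around a central pair, and the genes of this structure are largely silent in cells that carry only a single primary cilium. The genes described here are 39 of the 39017 rows of the count table, chosen by symbol (axonemal dynein heavy chains, radial spoke proteins, Spag and Tekt families, Hydin, Ccdc39, Ccdc40, Tppp3 and the regulators Foxj1, Rfx2 and Rfx3) with at least 50 reads summed over all 10 libraries. Of 46 rows with such a symbol, 7 were under that minimum (Dnah14, Dnah7c, Mcidas, Rsph6a, Spag11a, Spag11b and Tekt3), and Spag11a had 0 reads in every library, which allows up to 3 reads in each by counting error. By their known roles 35 members belong to the motile axoneme, its assembly or its regulators and are called axoneme members below. Spag4, Spag5, Spag7 and Spag9 were classed here as name matches. The table uses older symbols and holds no Cfap symbol, so the Cfap part of the choice found 0 rows.

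In the airway, multiciliated cells use these axonemes to move mucus. Outer and inner dynein arms are motors that slide neighbouring doublets, the doublet rulers Ccdc39 and Ccdc40 set the repeat at which arms and spokes attach, and radial spokes and the central apparatus pass the signals that shape the beat. Foxj1 is the transcription factor that switches on the motile cilium programme, and RFX factors act on promoters of both motile and primary cilium genes.

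The libraries were RNA sequencing of mouse lung tumours, 5 labelled KP and 5 labelled KPG1. KP tumours arise when Cre acts on engineered cancer alleles that every animal of both groups carries. KPG1 animals were also homozygous fl/fl for Slc2a1, which encodes the glucose transporter Glut1, whereas for the KP controls one label gives a heterozygous floxed allele and another gives wild type. All animals were C57BL/6 males, Cre was given into the trachea as Ad5SPC-Cre, in which the surfactant protein C promoter limits Cre to cells that use it, and tumours were taken 18 weeks and 6 days later. Each library came from macrodissected tumour that was dissociated and depleted of CD45+ leukocytes with magnetic beads. The question put to the genes was whether they differed between KPG1 and KP tumours. Nothing in the labels ties libraries to separate animals, so p-values measure only the spread between these samples.

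Totals ran from 32427029 to 49534284 counts per library, and 1 CPM (a count scaled to a fixed library size with TMM factors) corresponded to between 31.8 and 45.8 reads. Slc2a1 was at 71.7 to 127 CPM in KP and 40.8 to 66.8 CPM in KPG1, without overlap (log2 fold change -1.01, SE 0.20, limma adjusted p = 0.067, over the threshold of 0.05). Sftpc, which defines alveolar type 2 cells, stood at 5370 CPM or more in every library, and the leukocyte gene Ptprc stood between 5.21 and 10.97 CPM. Krt5, a basal cell gene, was at 0.72 CPM or less. Of the 18 mitosis genes, the summed level was 86.4 CPM in KP replicate 5 and between 385 and 701 CPM in the other libraries.

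Promoter windows from RefSeq (GRCm38.p6, 250 bases before to 50 bases after the gene start, 300 bases in all) were matched for 32 of the 39 members. Those of Dnah3, Foxj1, Rsph1, Rsph10b, Rsph4a, Spag1 and Tppp3 were not matched. Each window was searched on both strands for the RFX X-box (GTNNCC, any 3 bases, then GNAAC), the RFX half-site GTTGCC, which can lie inside an X-box, and the forkhead core TAAACA, the family motif of Foxj1. The windows below are those of the 4 members that held an X-box and whose levels followed ciliated cell markers across libraries, described further on, and of Dnah5 and Dnah12, which followed the markers closely and held the forkhead core alone. All are written 5′ to 3′ along the gene's own strand in lower case, with every match in capitals.
Hydin: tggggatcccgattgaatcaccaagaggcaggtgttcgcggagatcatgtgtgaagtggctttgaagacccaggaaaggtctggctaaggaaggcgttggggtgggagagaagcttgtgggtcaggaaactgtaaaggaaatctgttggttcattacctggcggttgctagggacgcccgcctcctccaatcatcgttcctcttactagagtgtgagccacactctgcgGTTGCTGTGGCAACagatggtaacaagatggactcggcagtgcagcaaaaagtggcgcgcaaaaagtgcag
Spag16: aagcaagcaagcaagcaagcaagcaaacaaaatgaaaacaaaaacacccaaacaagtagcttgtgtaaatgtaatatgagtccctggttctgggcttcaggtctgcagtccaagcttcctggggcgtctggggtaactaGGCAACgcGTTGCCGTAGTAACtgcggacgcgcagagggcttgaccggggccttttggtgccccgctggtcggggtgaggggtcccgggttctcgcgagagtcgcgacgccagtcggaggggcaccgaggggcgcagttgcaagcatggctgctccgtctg
Spag6: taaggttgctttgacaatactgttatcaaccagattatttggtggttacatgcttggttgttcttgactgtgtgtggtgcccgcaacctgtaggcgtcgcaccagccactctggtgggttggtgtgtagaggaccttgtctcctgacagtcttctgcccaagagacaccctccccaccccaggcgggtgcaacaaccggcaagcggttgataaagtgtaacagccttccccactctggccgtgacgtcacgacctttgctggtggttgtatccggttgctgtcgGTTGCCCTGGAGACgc
Tekt4: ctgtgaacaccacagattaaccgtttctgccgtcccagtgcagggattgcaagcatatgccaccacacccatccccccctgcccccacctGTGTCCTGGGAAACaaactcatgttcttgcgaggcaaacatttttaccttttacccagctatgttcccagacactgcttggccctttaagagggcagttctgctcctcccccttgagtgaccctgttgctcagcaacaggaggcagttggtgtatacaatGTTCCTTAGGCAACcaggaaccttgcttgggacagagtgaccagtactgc
Dnah5: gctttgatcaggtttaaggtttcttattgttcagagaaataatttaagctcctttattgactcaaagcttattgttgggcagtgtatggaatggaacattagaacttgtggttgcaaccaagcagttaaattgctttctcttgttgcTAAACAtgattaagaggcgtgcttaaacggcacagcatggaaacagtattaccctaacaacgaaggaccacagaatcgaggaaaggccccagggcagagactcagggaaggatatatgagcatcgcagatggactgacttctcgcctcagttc
Dnah12: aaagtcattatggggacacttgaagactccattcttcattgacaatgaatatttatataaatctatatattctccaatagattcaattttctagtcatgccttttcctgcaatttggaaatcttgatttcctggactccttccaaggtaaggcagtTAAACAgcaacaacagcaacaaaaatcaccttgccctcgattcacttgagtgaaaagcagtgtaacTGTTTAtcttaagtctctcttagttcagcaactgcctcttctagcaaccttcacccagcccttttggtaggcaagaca

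The windows lie at chr8:110266727-110267026 for Hydin, chr1:69826720-69827019 for Spag16, chr16:16829314-16829613 (minus strand) for Spag6, chr17:25471340-25471639 for Tekt4, chr15:28203516-28203815 for Dnah5 and chr14:26691304-26691603 for Dnah12. In Hydin the X-box begins 21 bases before the gene start. In Spag16 it begins 103 bases before it, next to a second half-site on the other strand. Tekt4 holds 2 X-boxes, one 160 bases before the start and one at it. In Dnah5 the forkhead core begins 103 bases before the start, and Dnah12 holds 2 such cores.

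An X-box was found in 5 of 28 axoneme members with a window (Dnah17, Hydin, Spag16, Spag6 and Tekt4), which is 17.9%, against 2.49% of the 27025 genes with a promoter window. Among the name matches, Spag5 held one too. The half-site was found in 13 of the 28 (46.4%, against 14.1% of all genes), among them Rfx2, Rfx3, Dnah10, Dnah7b, Tekt1 and Tekt2. The forkhead core was found in 9 of the 28 (32.1%, against 15.1%), among them Dnah5, Dnah11, Dnah12 and Spag17. Motif and likeness to ciliated cell markers did not always go together. Ccdc40 followed the markers (r = 0.83) and held none of these motifs. Dnah11, Dnah8, Spag8 and Tekt5 held the forkhead core and had r from -0.13 to 0.03. A match is a run of letters and not a binding site.

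The axoneme genes were scarce in these tumours. Of the 35 axoneme members, 14 had a mean under 1 CPM over the 10 libraries, 13 had 1 to under 5 CPM, and 8 had 5 CPM or more. Per length, the median was 0.339 CPM per kilobase of exon. The highest was Tppp3, a tubulin-binding protein abundant in ciliated cells but not restricted to axonemes, at 13.2 CPM per kilobase. Next per length came Rsph9 at 3.75, Tekt5 at 2.19, Rsph3a at 2.17, Rfx3 at 1.498 and Rfx2 at 1.49 CPM per kilobase. The dynein heavy chains, with exons of 12009 (Dnah12) to 26820 bases (Dnah8) in all, were low on this scale. They ran from 0.0159 CPM per kilobase for Dnah17 to 0.848 for Dnah2. Both abundant name matches were higher, with Spag7 at 36.3 and Spag9, a scaffold of JNK signalling, at 21.5 CPM per kilobase. In bulk tissue, fewer cells of a type and less RNA per cell cannot be told apart.

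No member passed the test of KPG1 against KP. Of the 37 members with enough reads to be tested (all but Spag16 and Dnah7a), 0 were higher and 0 were lower at a limma adjusted p under 0.05, where 0.0617% of all 16216 genes tested were higher and 0.111% lower. At an unadjusted p under 0.05, 1 member was higher (Spag8) and 1 was lower (Foxj1), where 5.26% of all genes were higher and 6.31% lower. At that limit edgeR had 1 member higher and 3 lower, with 4.69% of all genes higher and 7.78% lower, and DESeq2 had 0 and 3, with 5.12% and 8.97% of all genes. At an adjusted p under 0.05 both had 0 members in either direction, where edgeR called 0.0678% of all genes higher and 0.179% lower and DESeq2 0.775% and 2.62%. The fitted log2 fold change was above 0 for 22 of the 37, where 52.7% of all genes tested were above 0, and below 0 for 15. The median was 0.03 beside 0.02 over all genes tested. The 33 tested axoneme members alone gave the same median, with 19 above and 14 below 0.

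How much the data could show differed between members. The 95% interval of the log2 fold change lay wholly between -1 and 1 for 17 of the 37, so that a 2-fold change in either direction was outside it. It reached past that range for the other 20, among them Rsph4a, Spag17, Spag6, Dnah5 and Dnah9. The median SE of the members was 0.37, against 0.22 over all genes tested.

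**Figure D1:**
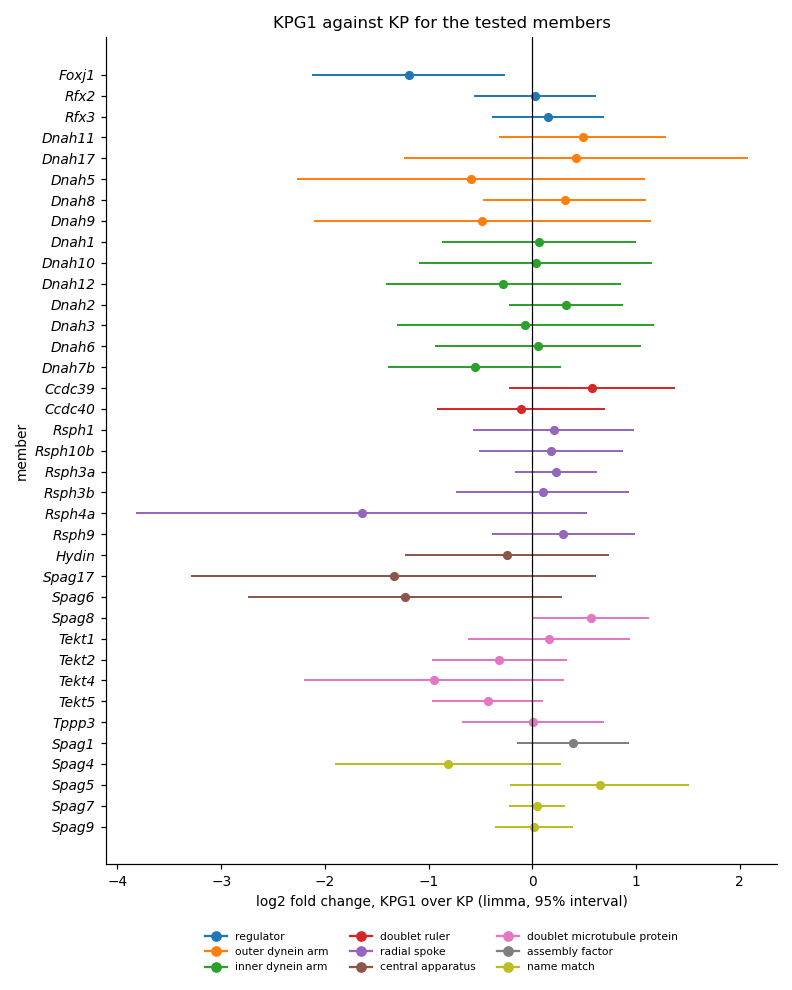
Log2 fold change of KPG1 over KP (x axis) for each of the 37 tested members (y axis), coloured by role, with points for the limma estimate and lines for the 95% interval. All intervals but those of Foxj1 and Spag8 hold 0, and the widest is that of Rsph4a.

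Among the regulators, Foxj1 had the lowest p of all members. Foxj1 (chr11:116330704-116335399 in GENCODE M21, build mm10) was at 2.73, 3.96, 3.59, 1.37 and 1.54 CPM in KP replicates 1 to 5 and at 0.79, 0.88, 1.38, 0.57 and 2.08 CPM in KPG1 replicates 1 to 5. The 3 highest values were KP libraries and the 3 lowest were KPG1 libraries, but KPG1 replicate 5 lay above KP replicates 4 and 5. KPG1 averaged 1.14 ± 0.60 CPM against 2.64 ± 1.17 CPM for KP (SD, n = 5 each). With a limma adjusted p of 0.312 the difference of -1.19 on the log2 scale (SE 0.42) was not past the threshold. Over the 18 alternative fits its log2 fold change stayed between -1.496 and -0.98, with adjusted p-values from 0.096 to 0.604.

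Rfx2 and Rfx3, which also serve primary cilia, were more abundant than Foxj1 per length, at 1.49 and 1.498 against 0.72 CPM per kilobase. Rfx3 was at 12.4, 12.5, 13.3, 18.2 and 20.1 CPM in KP and 12.5, 13.8, 13.96, 22.3 and 26.2 CPM in KPG1. KPG1 replicates 4 and 5 lay above every KP library while the other 3 lay within the KP range, and the log2 fold change was 0.15 (95% interval -0.38 to 0.68). Rfx2 was at 7.79, 17.6, 13.6, 5.90 and 11.2 CPM in KP, against 9.61 to 11.6 CPM in KPG1, so the KPG1 values lay inside the KP range. Its log2 fold change was 0.03 (95% interval -0.55 to 0.61), with a sign that changed between fits. Mcidas, which starts the multiciliated programme ahead of Foxj1, had 20 reads in all and was under the minimum.

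**Figure D2:**
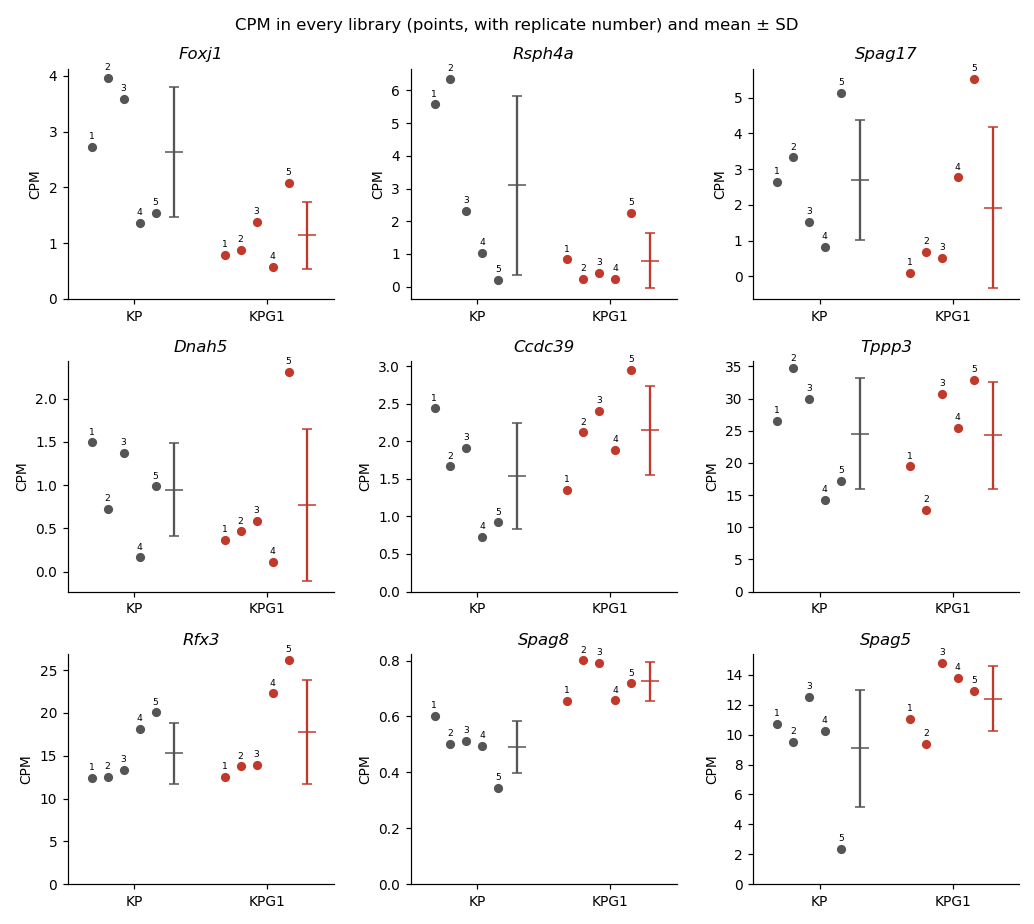
CPM (y axes, each panel on its own scale) of 9 members in every library of KP (grey) and KPG1 (red), numbered by replicate, with the mean and SD of the 5 libraries beside the points. The groups overlap in every panel except that of Spag8, and KPG1 replicate 5 is the highest KPG1 point for Foxj1, Rsph4a, Spag17, Dnah5, Ccdc39, Tppp3 and Rfx3.

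The outer dynein arm heavy chains Dnah5 and Dnah9, which pair in respiratory cilia, had wide ranges within each group. Dnah5 was at 1.496, 0.72, 1.38, 0.17 and 0.99 CPM in KP and 0.37, 0.46, 0.59, 0.11 and 2.31 CPM in KPG1. KPG1 replicate 5 was the highest library of all and KPG1 replicate 4, with 4 reads, the lowest. The range over the libraries was thus 20.2-fold, while the log2 fold change between groups was -0.59 (SE 0.76, limma adjusted p = 0.809). Dnah9 ran from 0.28 CPM in KP replicate 4 to 4.66 CPM in KP replicate 5, and all KPG1 values lay between these. Dnah11, the other respiratory outer arm chain, was the most abundant of its role at 3.55, 3.11, 4.99, 4.11 and 1.29 CPM in KP and 3.58, 3.15, 6.82, 5.26 and 3.75 CPM in KPG1. Its log2 fold change was 0.49 (SE 0.36, limma adjusted p = 0.637), or 0.14 without KP replicate 5. Dnah11 shares 642 exonic bases with Cdca7l on the opposite strand, so some of its reads may be those of Cdca7l. Dnah8 and Dnah17, the outer arm chains known from sperm, were at or under 1.70 and 0.74 CPM.

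Of the inner arm chains, Dnah2 was the most abundant and the steadiest. It stood at 12.4, 11.03, 15.3, 7.27 and 10.2 CPM in KP and at 8.54, 15.4, 16.9, 16.7 and 13.1 CPM in KPG1. The groups overlapped, and the log2 fold change was 0.32 (95% interval -0.21 to 0.86). Dnah7b had the lowest p of its role, with 13.5, 6.72, 4.42, 11.2 and 4.82 CPM in KP against 3.37, 6.49, 4.35, 4.03 and 8.86 CPM in KPG1. The highest 2 values were KP libraries, and the log2 fold change was -0.56 (SE 0.38, limma adjusted p = 0.602). Dnah7a and Dnah7c are close copies of Dnah7b, so reads that fit several of them could have been dropped or split in counting. The remaining tested chains, Dnah1, Dnah3, Dnah6, Dnah10 and Dnah12, had log2 fold changes between -0.28 and 0.07.

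Neither doublet ruler passed the test. Ccdc39 was at 2.44, 1.66, 1.92, 0.73 and 0.92 CPM in KP and at 1.35, 2.12, 2.40, 1.89 and 2.95 CPM in KPG1. Only KP replicates 4 and 5 lay below every KPG1 library, and the log2 fold change was 0.58 (SE 0.36, limma adjusted p = 0.566), or 0.34 without KP replicate 4. Ccdc39 shares 1256 exonic bases with Ttc14 on the opposite strand, and the strand setting of the counting is not given in the sources used here, so some of its reads may be those of Ttc14. Its partner Ccdc40, with no such overlap, was at 3.11, 1.54, 1.89, 1.04 and 0.92 CPM in KP and 1.35, 1.37, 1.52, 0.91 and 2.18 CPM in KPG1. The KPG1 range lay almost wholly inside the wider KP range, and the log2 fold change was -0.11 (95% interval -0.91 to 0.69).

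Among radial spoke proteins, Rsph4a had the most negative estimate of any member and one of the least certain. Rsph4a, a protein of the spoke head of airway cilia (chr10:33905111-33916021), was at 5.57, 6.35, 2.32, 1.04 and 0.21 CPM in KP and 0.83, 0.23, 0.43, 0.23 and 2.26 CPM in KPG1. The 3 highest libraries were KP, but the lowest library of all was KP replicate 5 and KPG1 replicate 5 came next after those 3. The log2 fold change was -1.65 (95% interval -3.81 to 0.52, limma adjusted p = 0.548). Leaving out 1 library moved it between -2.44 (without KP replicate 5) and -1.20. The other 5 spoke members, Rsph1, Rsph10b, Rsph3a, Rsph3b and Rsph9, had log2 fold changes from 0.10 to 0.30.

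Rsph3a, the most abundant spoke member, was at 5.50, 5.53, 6.61, 4.86 and 7.65 CPM in KP and at 7.67, 7.88, 6.41, 7.001 and 6.19 CPM in KPG1. It varied less than any other axoneme member, 1.62-fold from the lowest to the highest library. Its log2 fold change was 0.23 (95% interval -0.16 to 0.62). Rsph3b is a close copy of Rsph3a, so the division of reads between them is uncertain.

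All 4 central apparatus members had a lower mean log2 CPM in KPG1, but none of the 3 tested passed. Over all genes, 7669 of the 16216 tested had a negative estimate. Of central apparatus genes outside the rule, Ttc18 (now Cfap70) had a log2 fold change of 0.62. Those of Gm872, A330021E22Rik, Ccdc108 and C030017K20Rik were between -1.45 and -0.17. Spag17 was at 2.65, 3.33, 1.54, 0.83 and 5.14 CPM in KP and 0.11, 0.70, 0.52, 2.77 and 5.52 CPM in KPG1. The 3 lowest libraries were KPG1 and so was the highest, a 50.5-fold range whose low end, KPG1 replicate 1, held 5 reads. The log2 fold change was -1.34 (SE 0.89, limma adjusted p = 0.592). It was -0.59 without KPG1 replicate 1 and -0.49 with edgeR. Its exons overlap 820 bases of Wdr3 on the opposite strand. Spag6 (the gene now called Spag6l) was at 1.04, 0.97, 0.94, 0.66 and 0.16 CPM in KP and 0.44, 0.10, 0.29, 0.09 and 0.87 CPM in KPG1. KP replicates 1 to 3 lay above every KPG1 library and KP replicate 5 below 3 of them, and the estimate was -1.23 on the log2 scale (SE 0.69, limma adjusted p = 0.521).

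Hydin, the giant protein of a central pair projection, was at 0.58, 0.63, 1.59, 0.50 and 0.55 CPM in KP and 0.37, 0.41, 0.59, 0.49 and 1.49 CPM in KPG1. A single library stood above the rest in each group, KP replicate 3 and KPG1 replicate 5. The log2 fold change was -0.25 (95% interval -1.22 to 0.73). Spag16, which had too few reads to be tested, was at 0.031 to 0.46 CPM in KP and 0.044 to 0.77 CPM in KPG1.

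Within the doublet microtubule proteins, Spag8, a protein of the doublet lumen, was the only member whose groups did not overlap. Spag8 (chr4:43651335-43653594) was at 0.60, 0.50, 0.51, 0.50 and 0.34 CPM in KP and 0.66, 0.80, 0.79, 0.66 and 0.72 CPM in KPG1. All KPG1 libraries were above all KP libraries, as held for 1.05% of all genes tested (1.76% had every KPG1 library below), and with 37 members tested 1 did so. Mean levels were 0.492 ± 0.093 and 0.725 ± 0.071 CPM (SD, n = 5 each), a log2 difference of 0.57 (SE 0.25) with a limma adjusted p of 0.419. Tppp3 was at 26.5, 34.7, 30.0, 14.3 and 17.2 CPM in KP and at 19.5, 12.7, 30.7, 25.5 and 32.9 CPM in KPG1. The groups covered the same range and their means, 24.5 ± 8.62 and 24.3 ± 8.27 CPM (SD, n = 5 each), differed by far less than the spread.

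The tektins, filaments along the doublets, gave log2 fold changes of 0.16 for Tekt1, -0.32 for Tekt2, -0.95 for Tekt4 and -0.43 for Tekt5. Tekt4 reached 1.59 CPM in KP replicate 3 and 1.52 CPM in KPG1 replicate 5, and its other KPG1 values were 0.20 to 0.60 CPM. None passed the test. The assembly factor Spag1, needed to build dynein arms in the cytoplasm, was at 3.21, 4.65, 4.80, 5.50 and 7.46 CPM in KP and 5.29, 6.57, 7.001, 8.89 and 5.62 CPM in KPG1. The groups overlapped through KP replicates 4 and 5, and the log2 fold change was 0.39 (SE 0.24, limma adjusted p = 0.561).

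Of the name matches, Spag5, the mitotic spindle protein astrin, had the largest positive estimate among all members. It was at 10.7, 9.52, 12.5, 10.2 and 2.37 CPM in KP and at 11.1, 9.41, 14.8, 13.8 and 12.9 CPM in KPG1. KP replicate 5, the library with the lowest summed mitosis genes, was far below the rest. The log2 fold change was 0.65 (SE 0.39, limma adjusted p = 0.547), and without KP replicate 5 it fell to 0.18. Spag7 and Spag9 gave 0.04 (95% interval -0.22 to 0.30) and 0.02 (95% interval -0.35 to 0.38). Spag4, a nuclear envelope protein, gave -0.81 (SE 0.49, limma adjusted p = 0.553).

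Many members varied widely between tumours of one genotype. For 14 of the 35 axoneme members the libraries of a single group spanned more than 2 log2 units, a 4-fold range or more. KPG1 replicate 5 held the highest value of 11 axoneme members and was among the 3 highest libraries for 21, and it was among the 3 lowest for 0. KP replicate 4 held the lowest value of 11 and was among the 3 lowest for 17, and KPG1 replicate 1 held the lowest value of 6 and was among the 3 lowest for 19. KP replicate 3 was among the 3 highest for 20. Summed over the axoneme members, the level was 101 CPM in KP replicate 4, 168 CPM in KPG1 replicate 5 and 105 to 146 CPM in the other 8 libraries. Tppp3 gave 18.7% of this sum over all libraries. Rfx3, Dnah2 and Rfx2 followed, at means of 16.5, 12.7 and 10.9 CPM.

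**Figure D3:**
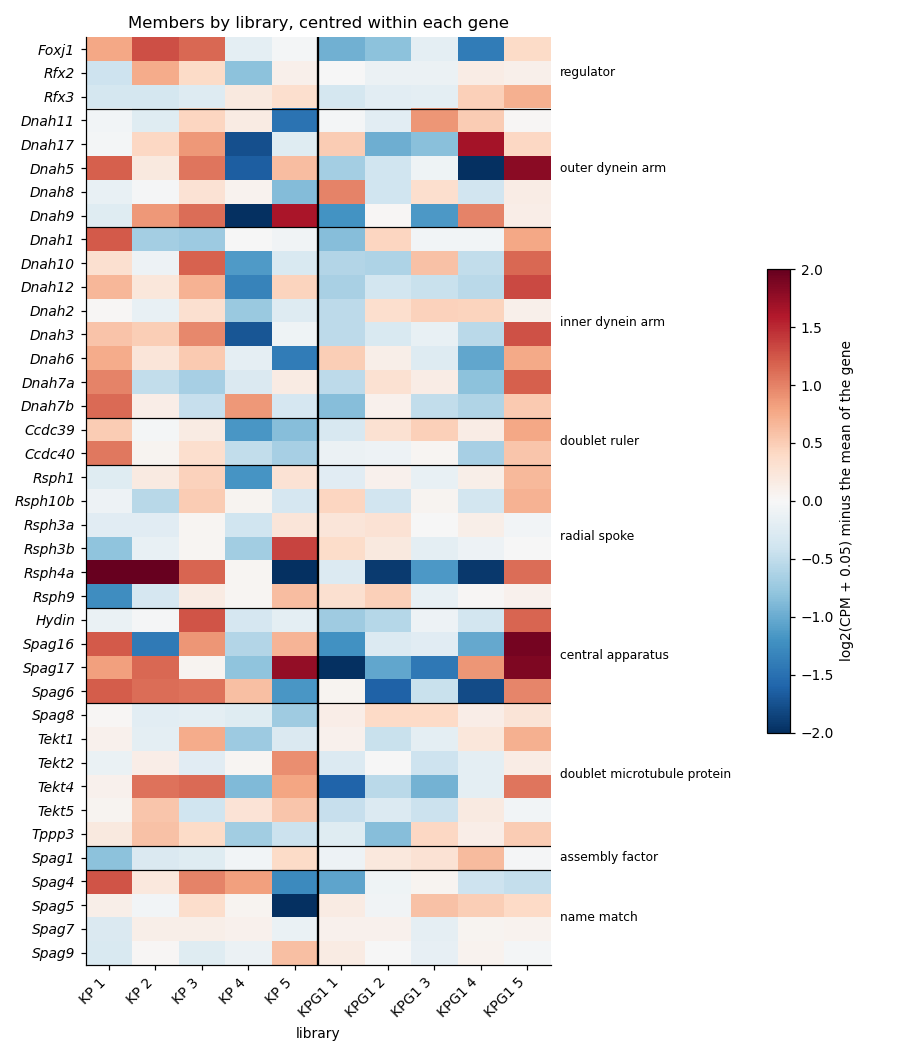
Each row is 1 of the 39 members, ordered by role, each column is 1 library, and colour shows log2(CPM + 0.05) minus the mean of that gene over the 10 libraries, from blue (-2 or lower) to red (2 or higher). Red prevails in KPG1 replicate 5 and blue in KP replicate 4 and KPG1 replicate 1, while the columns of either genotype are not alike.

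Ciliated cell markers that are no members also varied between libraries. The list held Pifo, Cdhr3, Cdhr4, Ccdc153, Tmem212 and others, 14 of which were tested. Their mean log2 CPM was highest in KP replicate 1 (0.65), KPG1 replicate 5 (0.62) and KP replicate 3 (0.44) and lowest in KPG1 replicate 4 (-1.03), KP replicate 4 (-0.78) and KPG1 replicate 1 (-0.73). Genes measured in the same library share its depth and TMM factor. Across the 10 libraries, the Pearson correlation of log2 CPM with the mean of these markers was 0.8 or higher for 5 axoneme members. These were Dnah5 (r = 0.94, Spearman rho = 0.98), Dnah12 (0.90 and 0.90), Dnah3 (0.87 and 0.95), Foxj1 (0.86 and 0.85) and Ccdc40 (0.83 and 0.88). Of all genes tested, 0.419% reached that level. Dnah3 shares 1506 exonic bases with Lyrm1 on the opposite strand, so some of its reads may be those of Lyrm1. Without the libraries farthest from the median of the markers, KP replicate 1 and KPG1 replicate 5, r was 0.91 for Dnah5, 0.84 for Dnah12, 0.84 for Dnah3, 0.93 for Foxj1 and 0.68 for Ccdc40.

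Summed over those 5 genes, the level was 9.94, 8.39, 9.87, 3.09 and 5.37 CPM in KP and 3.58, 4.01, 4.83, 2.72 and 10.8 CPM in KPG1. High and low libraries occurred in both groups, though 4 of the 5 KPG1 libraries were below 4 of the 5 KP libraries. These genes were picked on their levels, so the sums are a description only.

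A next band, with r from 0.71 to 0.78, held Dnah10, Spag16, Rsph4a, Hydin, Tekt4 and Spag6. The X-box gene whose promoter is not shown, Dnah17, was at r = 0.15. Below this band, r was 0.59 for Dnah6 and Dnah7a, 0.58 for Tppp3, 0.55 for Tekt1 and 0.54 for Spag17. The coefficient was below 0 for 8 of the 35, with Spag1 at -0.68, Rsph9 at -0.46 and Rsph3a at -0.30, and Rfx3 (-0.10) and Rfx2 (0.29) were near 0 or weakly positive. The median over the 35 was 0.49, and that over all genes tested was -0.0029. Without KP replicate 1 and KPG1 replicate 5, r was 0.74 for Dnah10, 0.49 for Spag16 and 0.62 for Rsph4a. It was 0.79 for Hydin, 0.78 for Tekt4 and 0.60 for Spag6, and then 0.63 for Rfx2 and -0.50 for Rfx3.

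**Figure D4:**
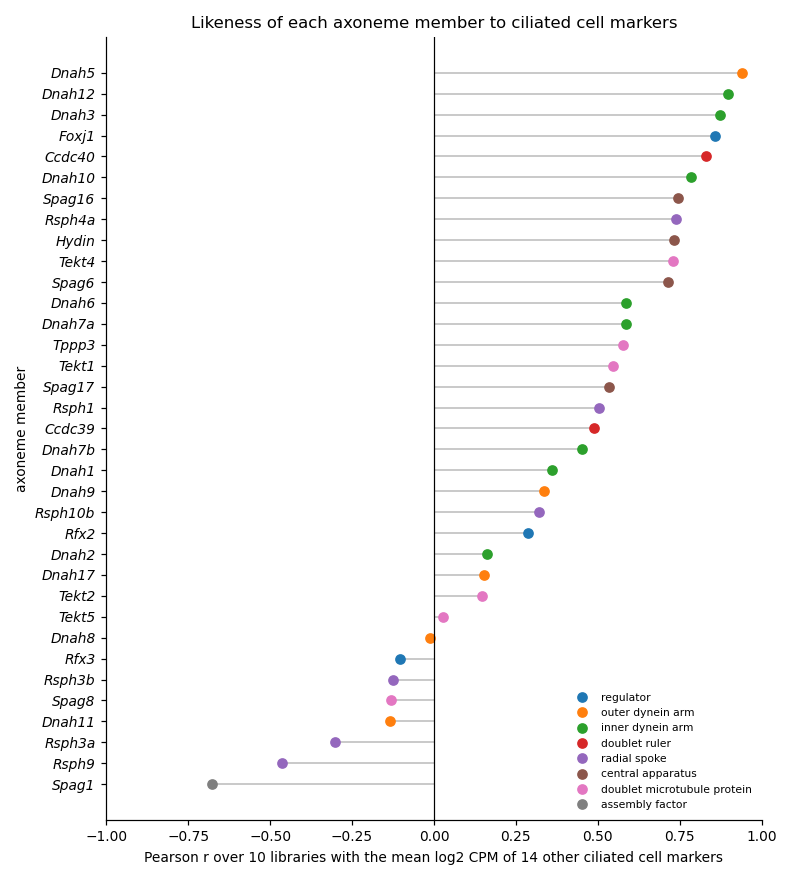
Pearson correlation (x axis) over the 10 libraries between the log2 CPM of each of the 35 axoneme members (y axis) and the mean log2 CPM of 14 other ciliated cell markers, coloured by role. Dnah5, Dnah12, Dnah3, Foxj1 and Ccdc40 are at 0.8 or higher, and Spag1 is the lowest at -0.68.

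Outside the members, the 10 genes most like the mean log2 CPM of the 33 tested axoneme members, among 14118 genes with a mean of 1 CPM or more, had r between 0.83 and 0.94. They were 3010003L21Rik, Wdr96 (now Cfap43), H2afj, Epb4.2, Dyrk1b, Plscr3, Myh11, 4933439C10Rik, 1810058I24Rik and Sik3, and 1 of them, Wdr96, was on the cilium lists used here. Of the 14118 genes compared, 64 were on those lists or were among the gene IDs with newer matching names. Among the 50 most alike genes the number was still 1. This count covers only genes on those lists, and the limit of 1 CPM left out scarcer ones. Among these, r with the ciliated cell markers was 0.97 for 1700003M02Rik (now Cfap206, mean 0.45 CPM). It was 0.94 for Wdr52 (now Cfap44, 0.78 CPM) and 0.32 for 4930529M08Rik (now Cfap61, 0.30 CPM).

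Other genes of the cilium were read from lists of the pathway. Of 27 other axoneme components, 19 were tested, 3 were higher and 5 lower at an unadjusted p under 0.05 (over all genes 5.26% and 6.31%), and 0 passed at an adjusted p under 0.05. The extremes were Ccdc113 (log2 fold change -1.95, limma adjusted p = 0.274) and Nme5 (0.92, limma adjusted p = 0.272). Of 9 dynein arm assembly factors, 6 were tested and 0 passed, with a median log2 fold change of 0.08. Of 19 other ciliated cell markers, 14 were tested and 0 passed. Of the 14, 11 were lower, where 52.7% of all genes had a positive estimate, and the median was -0.48. The most negative was Mlf1, at 16.9 and 19.8 CPM in KP replicates 2 and 1 and at most 6.14 CPM elsewhere (log2 fold change -2.12, limma adjusted p = 0.464). Of 7 further regulators of multiciliated cells, 3 were tested and 0 passed, and Foxn4 had 0 reads in every library.

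Genes of the primary cilium and of intraflagellar transport were far more abundant, at a summed 688 to 904 CPM. All 29 were tested, 23 had a positive estimate, as had 52.7% of all genes, and the median was 0.17. At an unadjusted p under 0.05, 5 were higher and 1 lower (over all genes 5.26% and 6.31%), with 0 at an adjusted p under 0.05. Rpgrip1l, of the ciliary transition zone, had the lowest p (log2 fold change 0.50, limma adjusted p = 0.179).

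Newer annotation gives Cfap or other matching names to 25 more gene IDs of the table. Of these, 20 were tested and 0 passed at an adjusted p under 0.05. Estimates were above 0 for 7, where 52.7% of all genes were above 0, and below 0 for 13, with a median of -0.17. Together with the members, 57 genes were then tested, with a median of 0.0040.

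Marker lists of other cells that the fraction could hold were read beside the members. Club cell genes, of the airway epithelium that also holds ciliated cells, summed to 87.6 to 250 CPM in KP and 131 to 400 CPM in KPG1. The highest club sum was in KPG1 replicate 2, which was among the 3 highest libraries for 7 axoneme members. By the mean log2 CPM of the club genes, KP replicate 3 was highest, at 3.06 against 2.74 in KPG1 replicate 2. KP replicate 3 was among the 3 highest libraries for 20 axoneme members. Basal cell genes summed to 13.7 CPM or less, and 3 of 5 were tested. Positive estimates, found for 52.7% of all genes, were found for 18 of 18 mitosis genes (median 0.86) and 11 of 11 alveolar type 2 genes (median 0.57). They were also found for 9 of 9 endothelial genes (median 0.32) and 8 of 9 fibroblast genes (median 0.44). Mitosis genes summed to 86.4 CPM in KP replicate 5, 385 to 489 CPM in the other KP libraries and 405 to 701 CPM in KPG1. Alveolar type 2 genes summed to 19170 and 29861 CPM in KP replicates 1 and 4. Their sum was 60512 to 65460 CPM in the other KP libraries and 50536 to 94485 CPM in KPG1. Leukocyte genes summed to 326 to 603 CPM, of which Lcp1, also made by many tumour cells, gave 86.9%. Endothelial genes summed to 334 to 1610 CPM, fibroblast genes to 158 to 398 CPM, alveolar type 1 genes to 940 to 3431 CPM and erythroid genes to 86.4 to 474 CPM. In all of these lists and the mitosis list 0 genes passed at an adjusted p under 0.05, and the part of any list in the members' levels was not tested.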

How the data were processed

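mRNA was measured in 10 tumour libraries (5 KP, 5 KPG1) with a stranded kit. Per the submitters' processing notes and the methods, the authors trimmed adapters and aligned reads to mm10 with HISAT2, and the notes also name featureCounts 1.4.4. The strand setting and annotation release are not given in the sources used here. The deposited values are raw counts per gene, and the joint table equals the single-library tables in all 390170 values. A file of the authors' log2 values was not used. The alleles on which Cre acts to form tumours are not named here.

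Counts were filtered with filterByExpr, in place of the study's own limit on low expression, scaled by TMM (edgeR 4.0.16) and fitted with voom and limma 3.58.1 (R 4.3.3), with Benjamini-Hochberg adjustment over 16216 genes. Log2 CPM used a prior count of 2. DESeq2 1.42.0, edgeR's quasi-likelihood test and other settings were alternatives. The fits were tested on simulated data. Positions and exon lengths came from GENCODE M21, on the same build. Named members were all regulators and rulers, Hydin, Tppp3, Spag5, Spag7 and Spag9, the most abundant and lowest-p member of each role, and the 3 largest changes each way at 1 CPM or more. Members and lists were chosen with earlier results of these data known. Other genes are named after their values were seen.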

Additional observations from a re-analysis of the deposited data

Results flagged for a closer look

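In 42 sets of 5 libraries (19 named members with the mean of the 33 tested axoneme members and that of the other ciliated cell markers, each in KP and in KPG1), a library stood apart from the other 4 in 5 sets, by a gap to its nearest neighbour of more than 0.71 of the whole range (Dixon's limit for 5 values). Chance gives about 1 in 20 sets, or 2.1 of 42. All values are log2 CPM.

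The mean of the 33 tested axoneme members was 1.56 in KPG1 replicate 5 and 0.61 to 0.78 in the other KPG1 libraries. Hydin was 0.72 in KP replicate 3 and -0.87 to -0.56 in the other KP libraries. Spag6 was -2.25 in KP replicate 5 and -0.49 to 0.12 in the others. Spag5 was 1.27 in KP replicate 5 and 3.26 to 3.65 in the others, and that library also held the lowest summed mitosis genes, whose part in the value was not tested. Spag7 was 5.56 in KPG1 replicate 3 and 5.79 to 5.83 in the others.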

How the results depend on the processing

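No member passed an adjusted p of 0.05 in any of the 19 fits, in either direction, or among the 57 tested genes matched by GENCODE M21 symbols (an alternative chosen after seeing the data). The smallest adjusted p of a member in any fit was 0.068, for Spag4 without KP replicate 5. Over all genes, the calls were more changeable: 10 higher and 18 lower with limma, 125 and 423 with DESeq2, 11 and 29 with edgeR, 51 and 177 with a weight per library, and 71 and 223 without KP replicate 5. The median log2 fold change of the members ran from -0.16 (without KP replicate 4) to 0.10 (without KP replicate 3) when 1 library was left out, and was -0.02 with edgeR, -0.03 with DESeq2 and -0.09 with a weight per library, within the spread between libraries of 0.27. The sign of this median is therefore not settled.

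The shared replicate numbers gave no sign of pairing: deviations of same-numbered libraries correlated between -0.16 and 0.08, and for 1 of the 5 numbers the best match was its own. With only 5 numbers, this check cannot exclude a pairing. With the replicate block the median of the members was 0.01, 0 members passed, and 4 genes were higher and 1 lower.

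Of the 19 named members tested, 11 kept their sign in every fit and 8 did not. With 1 library left out, the log2 fold change ran from -0.32 to 0.15 for Ccdc40, -0.57 to 0.038 for Hydin, -0.18 to 0.19 for Rfx2, -0.0024 to 0.25 for Rfx3, -0.024 to 0.098 for Spag7, -0.057 to 0.15 for Spag9 and -0.18 to 0.21 for Tppp3. Sample numbers were 6, 11, 12, 15 and 16 in KP and 1, 4, 5, 9 and 10 in KPG1. A term for them is therefore largely confounded with genotype. With the sample number as a term the log2 fold change turned to 0.098 for Ccdc40, 0.14 for Hydin, -0.050 for Rfx2, 0.15 for Spag6 and -0.18 for Spag9. With edgeR and DESeq2 it turned to -0.10 and -0.11 for Rfx2, -0.020 and -0.031 for Spag9, and -0.016 and -0.029 for Tppp3. With a weight per library it turned to -0.10 for Rfx2, -0.015 for Spag7 and -0.15 for Tppp3. Keeping genes with a mean of at least 1 CPM gave -0.0017 for Spag9 and -0.0099 for Tppp3, DESeq2's size factors gave -0.0080 for Tppp3, and the replicate block gave -0.039 for Rfx2 and -0.0026 for Tppp3. Except for Spag6 these are members with a reported estimate between -0.25 and 0.15, and the cause was not tested. Among members that kept their sign, the sample number as a term moved the value to -0.34 for Rsph4a and -2.37 for Spag17. The counts of the scarcest axoneme members, 14 of them under 1 CPM, limit their precision.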
